A study of Mus musculus with 15 samples.

Results

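B16.F10 mouse melanoma cells that received doxorubicin alone were set against B16.F10 cells that received an siRNA to Hif1a alone, to see which genes the 2 single treatments left at different levels and which they left at equal levels. B16.F10 is an established pigment-producing line, and all cells were kept in 1% oxygen. In the Dox group, wild-type cells were exposed to 0.25 µM doxorubicin hydrochloride for 24 h, and the labels name no siRNA or lipoplex for it. In the Hif1a_siRNA group, a pool of cells was transiently reverse-transfected with lipoplexes carrying siRNA to Hif1a at 25 nM, and no drug was given. The 3 further groups are used for levels and as controls: Hif1a_siRNA_Dox received that siRNA and, 24 h later, the drug; NC_siRNA received a negative control siRNA at 25 nM; and Control was untreated. Each group had 3 libraries, which the labels call biological replicates. Of 13172 genes that the deposited tables list for any group, 12838 were listed for both Dox and Hif1a_siRNA, and these are the genes compared; 12798 of them passed the filter on low counts. The groups differ in the lipoplex as well as in the treatment, and in the direct comparison the lipoplex and the siRNA cannot be told apart. A second comparison therefore took each treatment over its own control, Dox over Control and Hif1a_siRNA over NC_siRNA.

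The Dox libraries held 24840652 to 25392403 counted reads and the Hif1a_siRNA libraries 27433068 to 27926937. The share of reads on mitochondrially encoded genes was 3.37 to 4.07% in Dox and 1.64 to 2.11% in Hif1a_siRNA, and the 10 genes with the most reads took 11.5 to 12.1% in Dox against 6.35 to 6.59% in Hif1a_siRNA. Melanocyte genes were present in both groups: the pigment enzyme Tyrp1 averaged 13704 CPM (read counts scaled to library size) in Dox and 3260 CPM in Hif1a_siRNA. None of the 8 macrophage or 6 keratinocyte markers looked for was listed. Of 8 fibroblast markers 3 were listed, among them the collagen gene Col1a1 at 46.7 CPM in Dox and 3.49 CPM in Hif1a_siRNA; the T cell kinase gene Lck and the endothelial gene Vwf were each the 1 marker listed of 7. Lck averaged 6.30 CPM in Dox and 2.44 CPM in Hif1a_siRNA and Vwf 10.1 and 1.55 CPM, both higher in Dox. In the second comparison Lck was not called, with a log2 fold change of 0.27, and its log2 ratio of NC_siRNA over Control was -1.11.

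Hypoxia-inducible factor 1 (HIF-1) is a dimer of an oxygen-labile subunit, encoded by Hif1a, and a stable partner, encoded by Arnt. In low oxygen the labile subunit escapes prolyl hydroxylation and capture by the Vhl protein, pairs with Arnt and binds a short core sequence, ACGTG or GCGTG, near genes of glucose uptake, glycolysis, mitophagy, collagen processing and pH control. Doxorubicin is an anthracycline that intercalates into DNA and traps topoisomerase II on it, which leaves DNA breaks and engages the damage kinases and p53.

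The treatments left most genes at different levels. In Dox, 5610 genes were higher than in Hif1a_siRNA (43.8% of those tested) and 5614 were lower (43.9%), at an adjusted p under 0.05 in edgeR's quasi-likelihood test. By at least 2-fold, 3428 were higher and 3509 lower, and by at least 10-fold 333 were higher and 206 lower. The libraries of the groups did not overlap for 11338 genes (88.6%). The median size of the log2 fold change, whichever its sign, was 1.10, and its median standard error was 0.09.

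Equal levels were tested separately, since a gene that misses the threshold of a difference may only be measured poorly. A gene is called equal here where a pair of one-sided tests placed its ratio within 1.5-fold on both sides, at an adjusted p under 0.05. Equal levels were found for 1754 genes (13.7%). Of these, 939 did not differ and 815 differed by an amount that lay inside the margin, so a gene can be both different and equal. A further 635 genes could be called neither different nor equal. Their median standard error was 0.25 and their median level 1.54 CPM, against 26.1 CPM for all tested genes. The equal genes are tied to how the libraries are scaled: upper-quartile factors moved the log2 fold change of all genes by a median of 0.27, and 1052 of the 1754 genes were still equal under them.

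**Figure D1:**
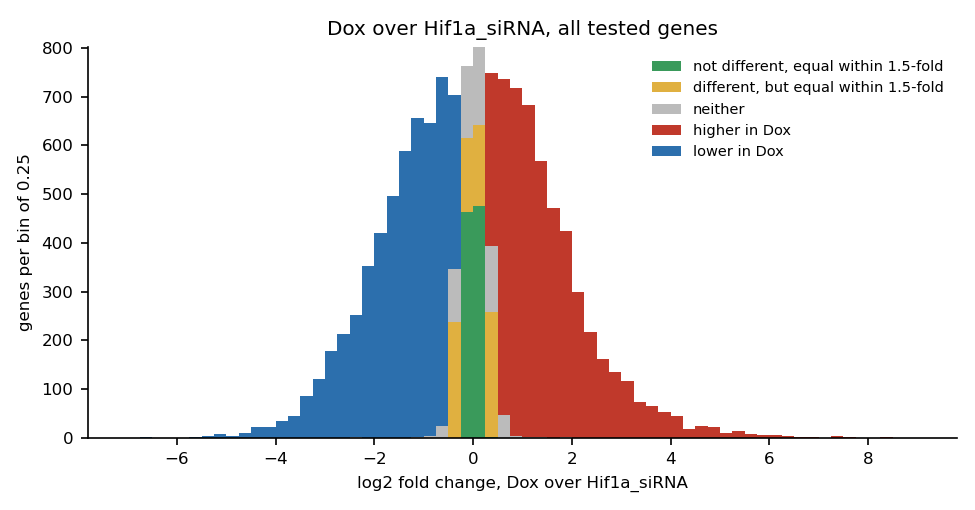
Log2 fold change of Dox over Hif1a_siRNA (x axis) for the 12798 tested genes, counted in bins 0.25 wide (y axis) and coloured by call. Green and yellow bars are the 1754 genes at equal levels within 1.5-fold, which sit at the centre; red and blue bars are genes higher and lower in Dox.

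Genes with the smallest p-values of the equality test among those of at least 50 CPM are given next. Ssr2, a subunit of the translocon-associated complex of the endoplasmic reticulum, had 175, 177 and 182 CPM in Dox, against 172, 170 and 168 CPM in Hif1a_siRNA. Dag1, the dystroglycan gene, had 309, 302 and 324 CPM in Dox, against 301, 295 and 302 CPM in Hif1a_siRNA. On this CPM scale, set over all 15 libraries, the groups overlapped for Dag1 and lay apart by a small step for Ssr2. The step depends on the scale: a fit on all 15 libraries shifted the log2 fold changes by a median of 0.08. The 95% interval of the log2 fold change ran from -0.12 to 0.08 for Dag1 and from -0.11 to 0.09 for Ssr2. Others were Phb2 of the mitochondrial prohibitins, the copper importer Slc31a1, the ribosome maturation gene Rrp1, Vps11 of endosomal tethering, Rtn3 of the tubular endoplasmic reticulum, the endocytic scaffold Itsn1 and the 14-3-3 gene Ywhab. Levels equal between the treated groups could still differ from the controls: Dag1 averaged 480 CPM in Control and 772 CPM in NC_siRNA, and Ywhab 410 CPM in Control and 270 CPM in NC_siRNA.

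The targeted gene was examined first. Hif1a (chr12:73901324-73947554, mm10) had 137, 137 and 153 CPM in Dox, against 16.7, 15.9 and 18.9 CPM in Hif1a_siRNA. NC_siRNA had 289, 268 and 264 CPM and Control 204, 231 and 216 CPM, so the Hif1a_siRNA libraries were below every other library except those that received the same siRNA with the drug, which averaged 13.1 CPM. Hif1a was higher in Dox than in Hif1a_siRNA by 2.97 ± 0.07 on the log2 scale (standard error; edgeR adjusted p = 9.3e-15). Its partner went the other way. Arnt (chr3:95434367-95497240) had 10.1, 9.14 and 8.33 CPM in Dox, against 185, 187 and 179 CPM in Hif1a_siRNA, a log2 fold change of -4.40 ± 0.08 (edgeR adjusted p = 2.2e-16). Arnt averaged 199 CPM in NC_siRNA and 205 CPM in Control, so it was the Dox libraries that stood low. Each single treatment thus had a low transcript level of a different HIF-1 subunit. Both directions were called in the second comparison too, with log2 fold changes of 3.39 ± 0.10 for Hif1a and -4.36 ± 0.09 for Arnt.

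Among 9 HIF subunits and regulators, 4 were higher in Dox, 5 were lower and 1 was equal, beside 43.8% higher, 43.9% lower and 13.7% equal of all tested genes. Counts of every list below are to be read beside the same shares. Counts over own controls are to be read beside 41.1% higher and 38.7% lower. No list was tested as a set. Epas1, which encodes the labile subunit of HIF-2, was higher in Dox, at 31.3 ± 1.5 CPM against 9.66 ± 1.14 CPM in Hif1a_siRNA (SD, n = 3 each). The factor-inhibiting asparaginyl hydroxylase gene Hif1an was lower, with 5.64, 7.80 and 5.32 CPM in Dox, against 54.4, 51.5 and 54.4 CPM in Hif1a_siRNA. Vhl was lower by 1.03 on the log2 scale, and so was Cited2, a competitor of HIF-1 for its coactivators, by 1.40. The prolyl hydroxylase gene Egln1 was equal by the test, with 35.8, 41.6 and 33.0 CPM in Dox, against 27.8, 31.0 and 30.5 CPM in Hif1a_siRNA, although it averaged 488 CPM in NC_siRNA and 209 CPM in Control. The Dox libraries of Egln1 all lay above the Hif1a_siRNA libraries, and its log2 fold change of 0.23 also passed the test of a difference (edgeR adjusted p = 0.027). Without replicate 2 of Dox or replicate 1 of Hif1a_siRNA it did not, with edgeR adjusted p-values of 0.13 and 0.12, and without replicate 2 of Hif1a_siRNA its equality p was at the threshold, 0.05. Over its own controls it was higher, by 1.54 ± 0.11.

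Targets of HIF-1 fell into equal and different genes. Of 22 targets in glucose uptake and glycolysis, 17 were higher in Dox, 3 were lower and 5 were equal, with a median log2 fold change of 0.97 against 0.01 for all tested genes. Of 30 targets outside glycolysis, 14 were higher, 14 were lower and 6 were equal, with a median of -0.02. The promoters of 4 targets are shown because they stand for the equal genes (Pfkp, Slc2a1), the genes higher in Dox (Plod1) and the genes lower in Dox (Bhlhe41). Each sequence is the RefSeq window on GRCm38.p6 from 250 bases before to 50 bases after the start of the gene, on the strand of the gene, with the cores ACGTG and GCGTG and their reverse complements CACGT and CACGC in capitals:
Pfkp: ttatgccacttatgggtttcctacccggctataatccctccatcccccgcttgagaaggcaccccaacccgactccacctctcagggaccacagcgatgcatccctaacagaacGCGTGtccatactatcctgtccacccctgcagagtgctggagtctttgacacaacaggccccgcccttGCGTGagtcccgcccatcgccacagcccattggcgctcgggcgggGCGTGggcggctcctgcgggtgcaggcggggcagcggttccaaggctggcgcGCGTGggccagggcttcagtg
Slc2a1: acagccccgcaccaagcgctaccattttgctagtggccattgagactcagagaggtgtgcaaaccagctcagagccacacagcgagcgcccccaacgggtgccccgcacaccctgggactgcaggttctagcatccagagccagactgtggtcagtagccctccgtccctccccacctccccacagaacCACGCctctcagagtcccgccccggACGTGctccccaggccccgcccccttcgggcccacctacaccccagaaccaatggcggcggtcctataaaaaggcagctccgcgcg
Plod1: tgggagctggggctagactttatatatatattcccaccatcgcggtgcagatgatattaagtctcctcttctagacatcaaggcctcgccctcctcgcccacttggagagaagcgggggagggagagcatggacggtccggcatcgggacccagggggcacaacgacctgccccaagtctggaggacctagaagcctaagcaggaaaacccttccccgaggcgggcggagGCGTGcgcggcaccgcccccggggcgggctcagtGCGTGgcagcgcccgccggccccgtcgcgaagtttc
Bhlhe41: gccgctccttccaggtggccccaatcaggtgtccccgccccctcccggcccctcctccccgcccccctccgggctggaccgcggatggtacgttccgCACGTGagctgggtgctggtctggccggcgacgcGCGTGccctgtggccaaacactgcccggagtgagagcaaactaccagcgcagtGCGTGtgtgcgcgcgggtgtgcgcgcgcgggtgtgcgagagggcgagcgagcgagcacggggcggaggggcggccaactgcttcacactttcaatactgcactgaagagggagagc

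These windows lie at chr13:6648722-6649021 (minus strand), chr4:119108495-119108794 (plus strand), chr4:147936727-147937026 (minus strand) and chr6:145865371-145865670 (minus strand). Pfkp held 4 cores, Slc2a1 held 2, Plod1 held 2 and Bhlhe41 held 4, of which a pair overlap in the palindrome CACGTG. Promoters with at least 1 core were common: 6177 of the 9600 tested genes with a window in the table had one (64.3%). Among the glycolytic targets it was 15 of 21, and among the other targets 21 of 24. A core was present in 4 of 5 equal, 11 of 16 higher and 2 of 3 lower glycolytic targets. Outside glycolysis it was present in 4 of 5 equal, 9 of 9 higher and 10 of 13 lower targets. A match is a description of the letters and not a binding site.

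Most of the equal targets that are named here stood below both controls. Pfkp, the platelet-type phosphofructokinase gene, had 149, 163 and 146 CPM in Dox, against 135, 140 and 145 CPM in Hif1a_siRNA, and averaged 830 CPM in NC_siRNA and 1003 CPM in Control. The glucose transporter gene Slc2a1 had 40.6, 53.5 and 49.4 CPM in Dox, against 49.5, 51.9 and 51.8 CPM in Hif1a_siRNA, and averaged 630 CPM in NC_siRNA and 478 CPM in Control. On the CPM scale the treated groups overlapped for Slc2a1 and lay just apart for Pfkp. The 95% intervals of the fitted log2 fold change were -0.07 to 0.17 for Pfkp and -0.35 to 0.01 for Slc2a1. Bnip3l, a mitophagy receptor gene, averaged 178 CPM in Dox and 150 CPM in Hif1a_siRNA, with 1081 CPM in NC_siRNA and 1447 CPM in Control. The MYC antagonist gene Mxi1 averaged 87.1 CPM in Dox and 94.4 CPM in Hif1a_siRNA, with 256 CPM in NC_siRNA and 230 CPM in Control. Aldoa, an aldolase gene, was equal at 4103 and 3374 CPM, and Narf, a nuclear iron-sulfur protein gene, at 98.8 and 84.6 CPM, in Dox and Hif1a_siRNA in that order. Aldoa was below both controls and Narf, at 105 CPM in NC_siRNA and 72.1 CPM in Control, was not. Under upper-quartile factors Aldoa, Narf and Egln1 were no longer equal, while Pfkp, Slc2a1, Bnip3l and Mxi1 were.

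Other targets stood high in one treated group and low in the other. Ndrg1, a stress-response gene named for its regulation by MYC, had 1296, 1357 and 1459 CPM in Dox, against 147, 150 and 153 CPM in Hif1a_siRNA, while NC_siRNA averaged 1397 CPM and Control 1469 CPM. Plod1, a collagen lysyl hydroxylase gene, had 337, 319 and 363 CPM in Dox, against 35.6, 35.6 and 39.0 CPM in Hif1a_siRNA. Loxl2, which encodes a collagen cross-linking oxidase, averaged 56.6 CPM in Dox and 4.08 CPM in Hif1a_siRNA. These 3 genes were lower in Hif1a_siRNA than in Dox, with log2 fold changes of Dox over Hif1a_siRNA of 3.12 to 3.72. Several abundant enzymes of the later steps of glycolysis followed the same order. Pkm (pyruvate kinase) was higher in Dox by 2.24 ± 0.06, Tpi1 (triose phosphate isomerase) by 2.09 ± 0.05 and Gapdh by 1.85 ± 0.05. Mif, a cytokine gene, was higher by 1.71.

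A second set of targets was lower in Dox. Bhlhe41, a circadian and hypoxic transcriptional repressor gene, had 10.1, 10.7 and 9.39 CPM in Dox, against 504, 489 and 516 CPM in Hif1a_siRNA, and NC_siRNA and Control averaged 581 and 532 CPM. Kdm4c, a histone demethylase gene, had 6.52, 5.58 and 7.18 CPM in Dox, against 84.3, 84.2 and 85.8 CPM in Hif1a_siRNA, and averaged 101 CPM in NC_siRNA and 91.9 CPM in Control. Ero1a, the disulfide-forming oxidase gene of the endoplasmic reticulum, averaged 218 CPM in Dox and 1211 CPM in Hif1a_siRNA, with 9465 CPM in NC_siRNA and 5006 CPM in Control. Bhlhe41 and Kdm4c were thus much lower in Dox than in each other group named here, and Ero1a was low in both treatments but lower in Dox. Eno2 (neuronal enolase) was lower in Dox by 2.67 on the log2 scale, Bhlhe40 by 1.57 and Hk2 (hexokinase 2) by 1.13.

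**Figure D2:**
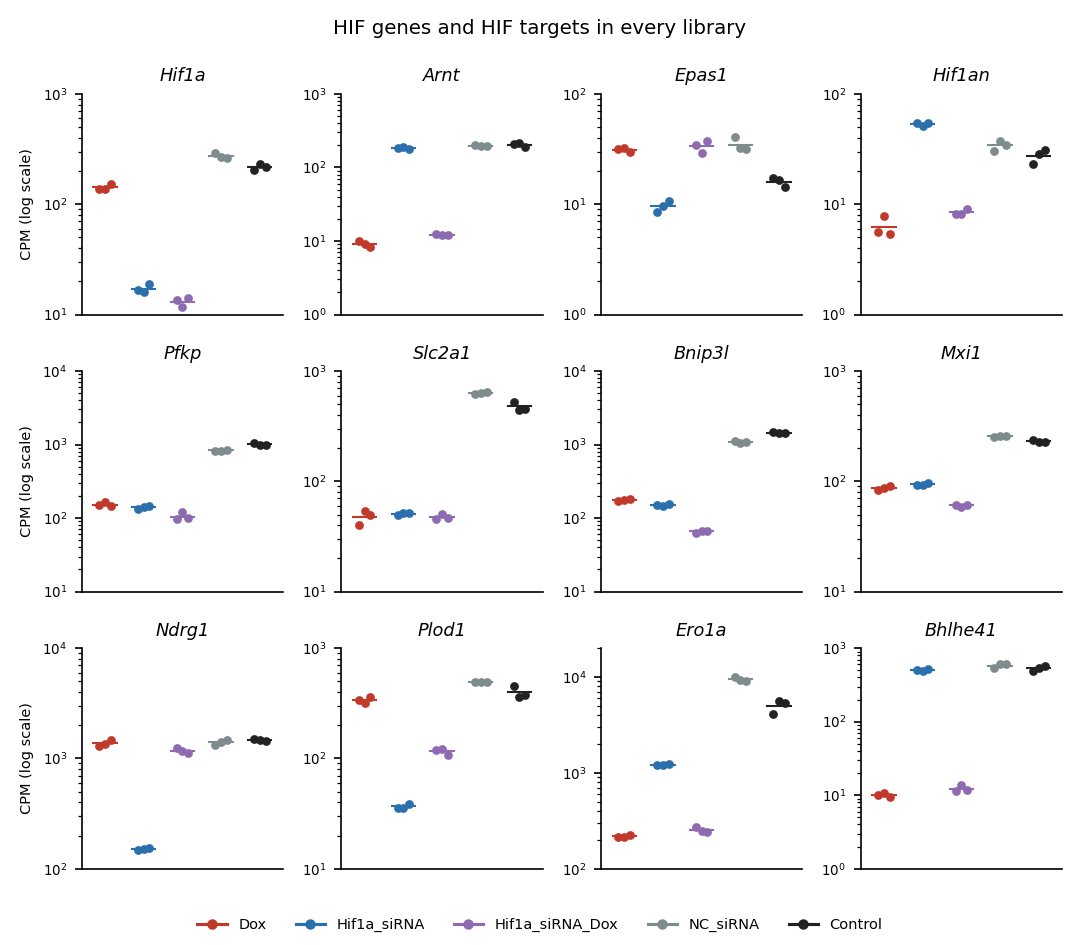
Level of 12 HIF genes and HIF targets in each of the 15 libraries, as CPM on a log axis; points are libraries, bars are group means and each panel has its own axis. Top row, subunits and regulators, with Hif1a low in Hif1a_siRNA and Arnt low in Dox; middle row, targets equal in Dox and Hif1a_siRNA; bottom row, targets that differed, such as Ndrg1 (high in Dox) and Bhlhe41 (low in Dox).

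Of 27 p53 targets, 12 were higher in Dox, 10 were lower and 7 were equal, with a median log2 fold change of 0.11. Over own controls 17 were higher and 7 were lower, with a median of 0.61, beside 41.1% higher and 38.7% lower of all genes in that comparison. Cdkn1a, which encodes the cell cycle inhibitor p21, had 181, 216 and 199 CPM in Dox, against 176, 170 and 177 CPM in Hif1a_siRNA, and averaged 634 CPM in NC_siRNA and 576 CPM in Control. The pore-forming apoptosis gene Bax had 129, 124 and 122 CPM in Dox, against 108, 111 and 112 CPM in Hif1a_siRNA. Both were equal within the margin although their libraries did not overlap on the CPM scale. The damage recognition gene Xpc was equal at 44.9 CPM in Dox and 43.1 CPM in Hif1a_siRNA. Plk3, a stress-activated kinase gene, was higher in Dox, with 90.8, 107 and 102 CPM against 12.8, 13.3 and 12.6 CPM in Hif1a_siRNA. Tigar, a regulator of glycolysis, and Sesn1, a sestrin gene, were higher by 1.32 and 1.34. Gadd45a, a growth arrest gene, had 21.0, 21.6 and 24.2 CPM in Dox, against 139, 141 and 138 CPM in Hif1a_siRNA. Bbc3, which encodes the death activator PUMA, averaged 8.15 CPM in Dox and 61.0 CPM in Hif1a_siRNA. In the direct comparison, named members of the list thus stood on both sides.

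Of 11 genes of the BCL2 family, 5 were higher in Dox, 5 were lower and 1 was equal, with a median log2 fold change of 0.11; over own controls 4 were higher and 6 lower, with a median of -0.35. The death activator genes Bcl2l11, Bmf, Bad and Bid were higher in Dox, by 2.69, 2.43, 2.03 and 1.65 on the log2 scale. Death activators did not all rise: Bbc3, given above, was lower in Dox, with a log2 fold change of -2.98. Bad shares annotated bases with Gpr137, which had 46 CPM in Dox and 24.3 CPM in Hif1a_siRNA. The survival gene Mcl1 was lower, with 8.49, 11.4 and 8.33 CPM in Dox, against 160, 157 and 163 CPM in Hif1a_siRNA. Control averaged 49.4 CPM of Mcl1 and NC_siRNA 137 CPM, so part of the gap between the treated groups was already present between the controls; over its own controls the log2 fold change was -2.60 against -4.16 directly. The survival gene Bcl2l1 and the pore gene Bak1 were lower in Dox by 1.08 and 1.03.

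Of 9 genes of topoisomerases and of the repair of their DNA adducts, 2 were higher in Dox, 7 were lower and 1 was equal, with a median log2 fold change of -1.28. Over own controls 1 was higher and 7 were lower, with a median of -1.44. Top2a, a target of doxorubicin that is expressed in dividing cells, had 68.3, 68.8 and 59.5 CPM in Dox, against 609, 550 and 567 CPM in Hif1a_siRNA. Top2b, the isoform of resting and dividing cells, averaged 55.9 CPM in Dox and 218 CPM in Hif1a_siRNA. Top1 had 62.0, 60.9 and 60.9 CPM in Dox, against 232, 222 and 216 CPM in Hif1a_siRNA. All 3 were lower in Dox than in Hif1a_siRNA. The genes higher in the direct comparison were Top3a and Top1mt. Top3a, which encodes a type IA topoisomerase, had 152, 131 and 131 CPM in Dox, against 14.2, 12.9 and 16.8 CPM in Hif1a_siRNA. Top1mt, the gene of the mitochondrial enzyme, averaged 16.7 CPM in Dox and 12.7 CPM in Hif1a_siRNA. Its call was lost without replicate 1 of Dox and without replicate 1 or 3 of Hif1a_siRNA, with edgeR adjusted p-values of 0.17, 0.081 and 0.21.

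**Figure D3:**
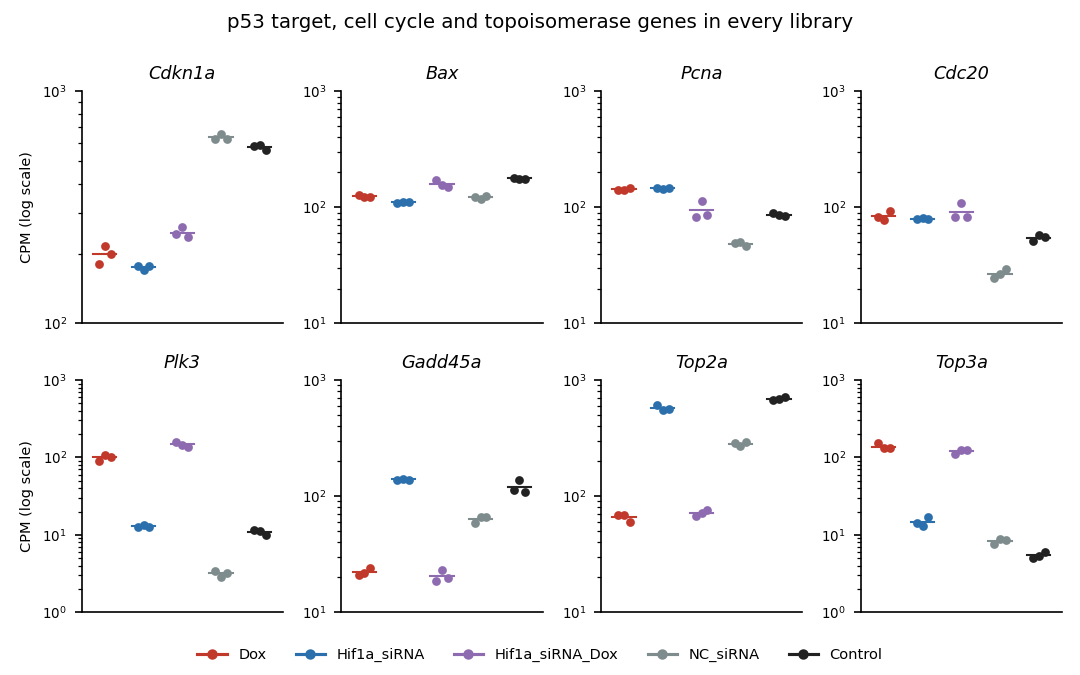
Level of 8 genes of the p53 response, the cell cycle and DNA topology in each of the 15 libraries, as CPM on a log axis; points are libraries, bars are group means and each panel has its own axis. Cdkn1a, Bax, Pcna and Cdc20 were equal in Dox and Hif1a_siRNA within 1.5-fold, Plk3 and Top3a were higher in Dox, and Gadd45a and Top2a were lower.

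Of 36 DNA replication genes, 21 were higher in Dox, 10 were lower and 9 were equal, with a median log2 fold change of 0.42; 4 of the 9 also differed by an amount inside the margin. Pcna, the sliding clamp gene, had 141, 142 and 148 CPM in Dox, against 148, 144 and 146 CPM in Hif1a_siRNA. The helicase loading gene Cdc45 averaged 38.3 and 37.1 CPM and the origin gene Orc6 43.4 and 42.9 CPM, in Dox and Hif1a_siRNA in that order. These 3 genes were equal, and their treated libraries overlapped. The DNA ligase gene Lig1 was higher, at 266 CPM in Dox and 81.5 CPM in Hif1a_siRNA, and the flap endonuclease gene Fen1 was higher by 1.61. Chaf1a, a histone chaperone gene, was lower, with 12.9, 12.2 and 9.88 CPM in Dox, against 67.5, 68.3 and 68.1 CPM in Hif1a_siRNA. Direction in this list depended on the controls. Over each group's own control 8 of the 36 genes were higher and 17 were lower, with a median of -0.19, beside 41.1% of all genes higher and 38.7% lower in that comparison; the median log2 ratio of NC_siRNA over Control was -0.79 in this list.

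Of 20 genes of nucleotide synthesis, 12 were higher in Dox, 7 were lower and 4 were equal, beside 43.8%, 43.9% and 13.7% of all tested genes, and the median was 0.36 on the log2 scale. Over own controls 7 were higher and 10 were lower, with a median of -0.20 (41.1% and 38.7% of all genes); the median of NC_siRNA over Control was -0.52. The pyrimidine enzyme gene Cad averaged 177 CPM in Dox and 39.1 CPM in Hif1a_siRNA. Rrm1, the large subunit gene of ribonucleotide reductase, was lower in Dox, at 47.0 CPM against 198 CPM in Hif1a_siRNA. The purine enzyme gene Paics was equal at 195 CPM in Dox and 177 CPM in Hif1a_siRNA.

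Of 32 mitosis genes, 6 were higher in Dox, 23 were lower and 10 were equal, with a median log2 fold change of -0.51; 7 of the 10 also differed by an amount inside the margin. Cdc20, the activator gene of the anaphase-promoting complex, had 82.4, 77.9 and 92.5 CPM in Dox, against 79.8, 80.8 and 79.3 CPM in Hif1a_siRNA. The kinetochore gene Ndc80 had 62.8, 65.2 and 66.6 CPM in Dox, against 63.8, 65.2 and 61.3 CPM in Hif1a_siRNA. Both were equal, with overlapping libraries, whereas Nuf2, the gene of the protein that pairs with Ndc80, averaged 5.70 CPM in Dox and 54.0 CPM in Hif1a_siRNA. The cyclin gene Ccna2 was lower by 2.13 and the cytokinesis gene Anln by 2.35. The checkpoint kinase gene Bub1 was higher in Dox, at 385 CPM against 138 CPM in Hif1a_siRNA, but was lower over its own controls, by 1.04 ± 0.09; NC_siRNA averaged 31.8 CPM of Bub1 and Control 184 CPM. In that comparison 2 of the 32 mitosis genes were higher and 29 were lower, beside 41.1% and 38.7% of all genes.

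E2F factors and G1 cyclins, 21 genes, had 6 higher in Dox, 12 lower and 5 equal, with a median log2 fold change of -0.40. Over own controls 7 were higher and 9 lower, with a median of 0.14. E2f2 was higher, at 109 CPM in Dox and 6.60 CPM in Hif1a_siRNA, the cyclin gene Ccnd1 was higher by 1.75, and E2f1 was equal at 39.0 CPM in Dox and 37.7 CPM in Hif1a_siRNA. The p27 gene Cdkn1b was lower by 1.68. The fitted change of Cdk2, a kinase gene of S phase, was -4.69, but the Cdk2 span shares 7114 bases with that of Pmel, which had 12934 CPM in Dox and 2495 CPM in Hif1a_siRNA, and how the counting split overlapping genes is not given in the sources used here.

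Of 25 genes of homologous recombination and the Fanconi pathway, 7 were higher, 17 were lower and 1 was equal, with a median log2 fold change of -0.98. Of all tested genes 43.9% were lower. The breast cancer gene Brca1 had 54.5, 45.0 and 53.6 CPM in Dox, against 116, 117 and 125 CPM in Hif1a_siRNA. Its partner gene Bard1 was lower by 1.81 and Fancd2 by 1.47, while the core complex gene Fanca was higher, by 1.45. Of 21 damage kinase and end joining genes, 5 were higher, 13 were lower and 5 were equal. Nbn, which encodes the NBS1 subunit of the break sensor complex, had 2.71, 3.73 and 3.41 CPM in Dox, against 64.5, 60.8 and 59.5 CPM in Hif1a_siRNA. The checkpoint kinase gene Chek2 was lower by 2.98 and Atr by 1.42. Atm averaged 69.2 CPM in Dox and 60.4 CPM in Hif1a_siRNA and was equal, though not under upper-quartile factors. The scaffold gene Mdc1 was equal at 99.4 CPM in Dox and 88.8 CPM in Hif1a_siRNA, and Parp1, the gene of the strand break sensor, was higher by 1.49.

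Genes of the integrated stress response, the ATF4 programme of amino acid supply, had the lowest median of the 30 lists, -1.44. Of 22 genes, 5 were higher in Dox, 16 were lower and 2 were equal. Trib3, a feedback inhibitor gene of this programme, had 8.40, 7.30 and 8.68 CPM in Dox, against 273, 273 and 278 CPM in Hif1a_siRNA. The asparagine synthetase gene Asns had 73.1, 78.8 and 74.9 CPM in Dox, against 454, 446 and 444 CPM in Hif1a_siRNA. Control averaged 378 CPM of Asns and NC_siRNA 185 CPM, so the Dox libraries were below and the Hif1a_siRNA libraries above their own controls. The serine synthesis genes Phgdh, Psat1 and Psph were higher in Dox, by 1.39, 0.83 and 0.80, but their log2 fold changes over own controls were 0.01, -0.20 and -0.19. The mitochondrial folate enzyme gene Mthfd2 was equal at 289 CPM in Dox and 284 CPM in Hif1a_siRNA.

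Targets of NRF2, the oxidative stress factor, and enzymes that reduce anthracyclines had 14 genes higher in Dox, 10 lower and 1 equal of 24. The median log2 fold change was 0.74. Over own controls 10 were higher and 9 were lower, with a median of 0.28. The median of NC_siRNA over Control was -0.30. Akr1b1, an aldose reductase gene, had 1296, 1358 and 1523 CPM in Dox, against 99.3, 102 and 99.8 CPM in Hif1a_siRNA, and Prdx1, a peroxiredoxin gene, was higher by 2.21. Slc7a11, the cystine importer gene, had 7.39, 7.80 and 5.09 CPM in Dox, against 141, 146 and 134 CPM in Hif1a_siRNA. Hmox1, the heme oxygenase gene, averaged 36.7 CPM in Dox and 162 CPM in Hif1a_siRNA, both below NC_siRNA at 683 CPM and Control at 772 CPM. Txnrd1 (thioredoxin reductase) and Srxn1 (sulfiredoxin) were lower by 2.78 and 2.05. The cytochrome reductase gene Por averaged 61.9 CPM in Dox and 48.7 CPM in Hif1a_siRNA and was equal, though not under upper-quartile factors.

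Of 21 chaperone and unfolded protein response genes of the endoplasmic reticulum, 11 were higher in Dox, 10 lower and 1 equal. The chaperone gene Hspa5 had 284, 359 and 322 CPM in Dox, against 2360, 2376 and 2351 CPM in Hif1a_siRNA. Hyou1, another chaperone gene of the same compartment, had 1107, 986 and 1159 CPM in Dox, against 177, 184 and 186 CPM in Hif1a_siRNA. These 2 genes stood in opposite order, and with Hyou1 went Calr (calreticulin, higher by 2.21) and Pdia3 (a disulfide isomerase, higher by 1.95). Of 16 heat shock genes, 9 were higher in Dox, 7 lower and 1 equal; Hspa4, an exchange factor of Hsp70, was lower by 3.28, and the mitochondrial chaperonin gene Hspd1 was equal at 959 CPM in Dox and 1032 CPM in Hif1a_siRNA. The median of the heat shock genes was 0.41 directly. Over each group's own control 4 were higher and 11 lower, with a median of -0.75.

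Of 29 lysosome and autophagy genes, 21 were higher in Dox, 8 were lower and 3 were equal, with a median log2 fold change of 0.88. Among all tested genes 43.8% were higher, 43.9% lower and 13.7% equal. The protease gene Ctsl had 1371, 1399 and 1518 CPM in Dox, against 262, 261 and 262 CPM in Hif1a_siRNA, and Glb1, the lysosomal beta-galactosidase gene, averaged 208 and 34.1 CPM in that order. Sqstm1, which encodes the autophagy receptor p62, was lower, with 151, 186 and 161 CPM in Dox, against 2294, 2322 and 2313 CPM in Hif1a_siRNA. NC_siRNA averaged 795 CPM of Sqstm1 and Control 1389 CPM.

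All 15 mitochondrially encoded genes were higher in Dox, by 0.80 to 2.84 on the log2 scale, and all 15 were higher over own controls. The ribosomal RNA mt-Rnr1 had 4861, 5267 and 5042 CPM in Dox, against 773, 828 and 729 CPM in Hif1a_siRNA, and mt-Co3, a cytochrome oxidase gene, averaged 1742 and 599 CPM in that order. In bulk RNA, more mitochondrial transcripts per cell and less nuclear messenger RNA per cell cannot be told apart. Of 20 nuclear genes of the tricarboxylic acid cycle, 14 were higher, 5 were lower and 2 were equal, with a median log2 fold change of 0.54. Over own controls 10 were higher and 7 were lower, with a median of 0.17. The median of NC_siRNA over Control was -0.65 in this list. Citrate synthase, Cs, was equal with 403, 352 and 395 CPM in Dox, against 375, 363 and 379 CPM in Hif1a_siRNA. The pyruvate dehydrogenase subunit gene Pdha1 was lower by 2.25 and Pdhb, the other subunit gene of that enzyme, was higher by 1.47.

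Of 25 cholesterol synthesis genes, 12 were higher in Dox, 10 lower and 4 equal, near the 43.8%, 43.9% and 13.7% of all tested genes. Hsd17b7, a late enzyme gene of the pathway, had 170, 157 and 176 CPM in Dox, against 10.8, 11.3 and 12.0 CPM in Hif1a_siRNA. Insig1, the sterol sensor gene, was lower, at 18.9 CPM in Dox and 167 CPM in Hif1a_siRNA. Cyp51, the lanosterol demethylase gene, was equal at 130 CPM in Dox and 120 CPM in Hif1a_siRNA, and so was Nsdhl at 45.8 and 42.2 CPM.

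Antigen presentation had the highest median of the 30 lists, 2.23. Of 10 genes of MHC class I presentation, 9 were higher in Dox, none was lower and 1 was equal. Among all tested genes 43.8% were higher and 43.9% lower. Without replicate 2 of Dox 1 of the 10 was lower. H2-K1, a class I heavy chain gene, had 563, 605 and 600 CPM in Dox, against 39.8, 41.8 and 39.6 CPM in Hif1a_siRNA, while NC_siRNA averaged 336 CPM and Control 325 CPM. B2m, the light chain gene, had 1048, 1019 and 1169 CPM in Dox, against 375, 336 and 335 CPM in Hif1a_siRNA. B2m averaged 391 CPM in NC_siRNA and 491 CPM in Control. The Hif1a_siRNA mean was thus below NC_siRNA and the Dox mean above Control in both genes, by more for H2-K1 on the siRNA side. Class I heavy chain genes are near-identical in places, and reads could be split between them in the counting; the same holds for Gapdh, Aldoa, Tpi1 and other genes with processed copies.

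Of 27 interferon-stimulated and nucleic acid sensing genes, 12 were higher in Dox, 12 were lower and 3 were equal, with a median log2 fold change of -0.17. The higher and lower counts were near the shares of all tested genes, 43.8% and 43.9%. Over own controls 14 were higher and 6 lower of 26, with a median of 0.80. Bst2 (tetherin) was higher by 1.96 and Irf1 by 1.81, and Ifit2 was lower by 2.25. Of 14 NF-kB and chemokine genes 8 were higher, 6 were lower and none was equal. The chemokine gene Cxcl10 had 3.94, 4.53 and 4.61 CPM in Dox, against 87.1, 90.1 and 86.3 CPM in Hif1a_siRNA. Cxcl10 averaged 6.05 CPM in Hif1a_siRNA_Dox, 3.87 CPM in NC_siRNA and 5.37 CPM in Control, so among the 5 groups only Hif1a_siRNA was high. Tnfaip3, an NF-kB inhibitor gene, averaged 23.1 CPM in Dox and 1.47 CPM in Hif1a_siRNA, and Nfkb2 was higher by 2.29.

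Of 20 AP-1 and immediate early genes, 10 were higher in Dox, 7 were lower and 3 were equal, with a median log2 fold change of 0.23; over own controls 12 were higher and 8 lower, with a median of 1.00. Fosb had 211, 291 and 224 CPM in Dox, against 0.560, 1.03 and 0.421 CPM in Hif1a_siRNA, the largest log2 fold change among the genes that the rule for named genes covers (log2 fold change 8.41 ± 0.37). Egr1 had 78.9, 119 and 86.8 CPM in Dox, against 0.466, 0.695 and 0.361 CPM in Hif1a_siRNA, and Fos was higher by 4.47. Fos averaged 25.4 CPM in NC_siRNA and 51.1 CPM in Control, and Fosb 13.9 and 21.9 CPM, so both were low in Hif1a_siRNA as well as high in Dox. Egr1, at 0.417 CPM in NC_siRNA and 0.891 CPM in Control, was high in Dox only among these 4 groups. Klf6, a zinc finger factor gene, was lower by 2.69, and the phosphatase gene Dusp4 was equal at 67.6 CPM in Dox and 69.3 CPM in Hif1a_siRNA.

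Of 28 TGF-beta and matrix genes, 21 were higher in Dox, 6 were lower and 4 were equal, with a median log2 fold change of 1.26. Among all tested genes 43.8% were higher, 43.9% lower and 13.7% equal. Thbs1, the thrombospondin gene, had 131, 160 and 139 CPM in Dox, against 6.71, 8.34 and 8.48 CPM in Hif1a_siRNA. The signal transducer gene Smad4 was lower, at 17.7 CPM in Dox and 153 CPM in Hif1a_siRNA, and the inhibitor gene Timp3 was equal at 78.3 CPM in Dox and 73.1 CPM in Hif1a_siRNA. Col1a1, a member of the fibroblast marker list, moved with these genes; the other fibroblast markers listed, Pdgfra at 3.80 and 0.845 CPM and Pdgfrb at 18.3 and 17.1 CPM in Dox and Hif1a_siRNA in that order, did not both follow. The endothelial marker Vwf was higher in Dox too, by 2.62 directly and 2.71 over own controls. The part of other cells in the result was not tested. Ccn1, a matricellular gene, was lower in Dox by 1.89 ± 0.11 but higher over its own controls by 0.47 ± 0.14. NC_siRNA averaged 502 CPM and Control 104 CPM.

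Of 17 melanocyte genes, 6 were higher in Dox, 11 were lower and 1 was equal, with a median log2 fold change of -0.72. Over own controls 5 were higher and 12 were lower, with a median of -1.47. The median of NC_siRNA over Control was -0.79. The pigment cell antigen gene Mlana had 2112, 2197 and 2265 CPM in Dox, against 144, 140 and 132 CPM in Hif1a_siRNA, and Tyrp1 and Dct, enzymes of melanin synthesis, were higher by 1.99 and 2.15. The lineage factor genes Sox10 and Pax3 went the other way. Sox10 had 25.4, 30.0 and 30.1 CPM in Dox, against 177, 184 and 183 CPM in Hif1a_siRNA, and Pax3 was lower by 2.45. The pigment hormone receptor gene Mc1r was lower by 3.80.

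**Figure D4:**
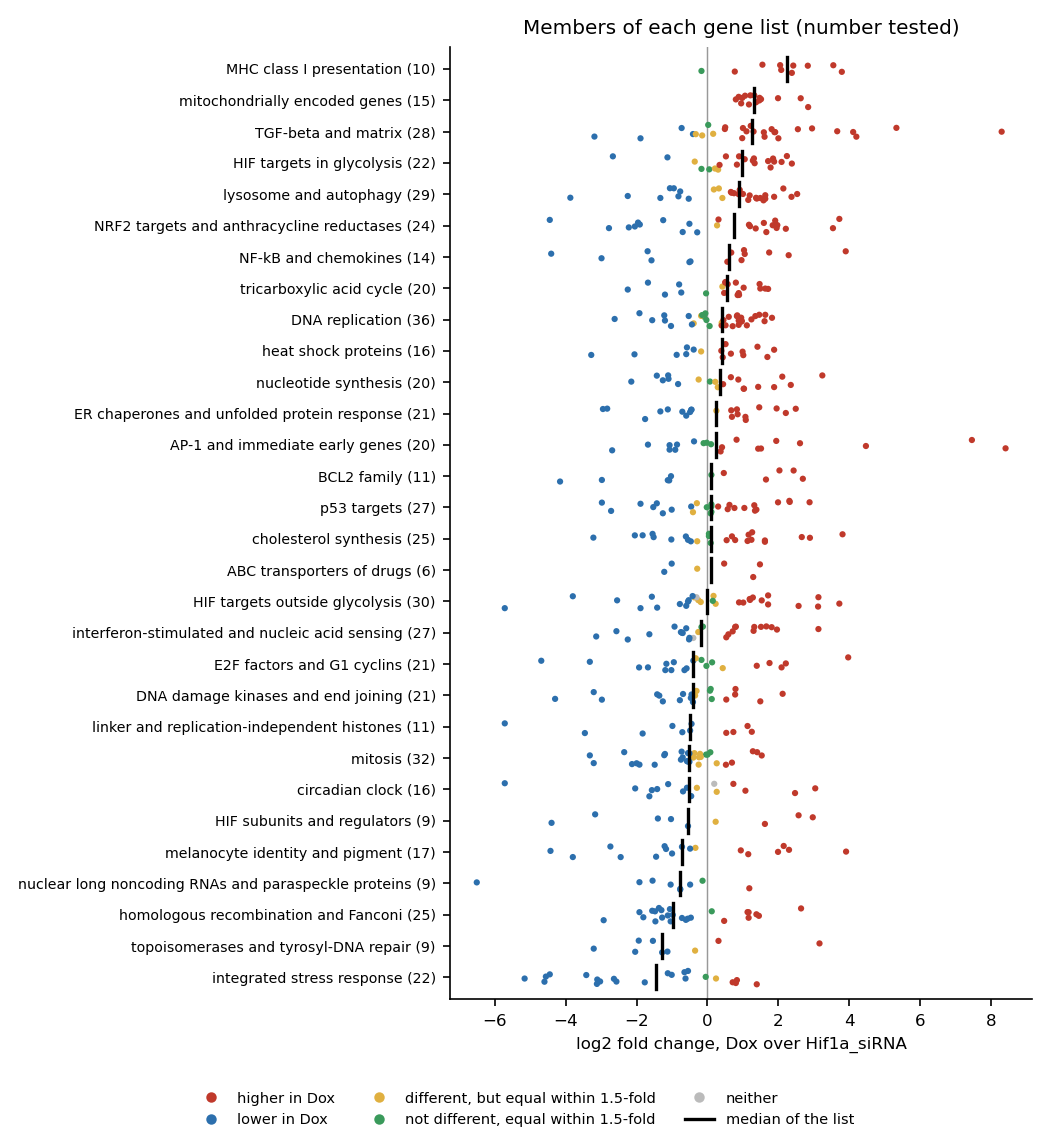
Log2 fold change of Dox over Hif1a_siRNA (x axis) for each member of 30 gene lists (rows, with the number tested), one point a gene, coloured by call; the black bar is the median of the list. MHC class I presentation has the highest median (2.23) and the integrated stress response the lowest (-1.44), and most lists hold red, blue and equal members together.

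Beside Fosb and Egr1, the genes with the largest rises in Dox included Oplah of glutathione breakdown, Hhatl, the triglyceride synthesis gene Dgat2, Icam5, the muscle actinin gene Actn3, C1qtnf1, Epop of Polycomb complexes, the poly(A) polymerase gene Tent5c and the lipase gene Lipg. Dgat2 had 254, 259 and 293 CPM in Dox, against 1.93, 1.69 and 1.29 CPM in Hif1a_siRNA, and Control averaged 5.93 CPM. Oplah had 78.7, 69.8 and 86.1 CPM in Dox, against 0.466, 0.302 and 0.331 CPM in Hif1a_siRNA, where it shares annotated bases with Exosc4. At such low levels a few reads set the Hif1a_siRNA value, and the standard error of the log2 fold change ranged from 0.13 for Dgat2 to 0.62 for Hhatl.

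The 12 with the largest falls in Dox were led by the nuclear long noncoding RNA Neat1, the scaffold of paraspeckles, which had 8.49, 7.88 and 4.43 CPM in Dox, against 531, 736 and 542 CPM in Hif1a_siRNA (log2 fold change -6.51 ± 0.29). H1f0, the linker histone gene of resting and differentiated cells, had 20.2, 15.6 and 17.0 CPM in Dox, against 891, 877 and 878 CPM in Hif1a_siRNA. In Hif1a_siRNA Neat1 was near its control levels, which averaged 663 CPM in NC_siRNA and 726 CPM in Control. H1f0 in Hif1a_siRNA was near Control, at 921 CPM, and below NC_siRNA, at 1268 CPM. Malat1, another nuclear noncoding RNA, was lower by 1.04. Beside Neat1, H1f0, Bhlhe41 and Trib3 they were the zinc finger genes Zfp655 and Zfp180, the lipid phosphatase gene Mtmr3, Chic1, the break repair and replication timing gene Rif1, Mipol1, Angptl6 and Fam133b, with log2 fold changes of -5.20 to -4.82. Mtmr3, at 9.89 CPM in Dox and 338 CPM in Hif1a_siRNA, shares annotated bases with a pseudogene at 62.5 and 15.6 CPM. Mipol1 shares 11744 bases with Prps1l3, which had 4.05 CPM in Dox and 35.2 CPM in Hif1a_siRNA.

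Genes listed for only one of the groups were not tested. The tables held 242 genes for Dox alone, 90 of them protein-coding, and 56 for Hif1a_siRNA alone. Of the Dox genes 23 averaged at least 5 CPM, while none of the Hif1a_siRNA genes did. Adam8, a metalloprotease gene, averaged 17.7 CPM in Dox and 0.293 CPM in Control. Sfn, which encodes 14-3-3 sigma, averaged 15.0 CPM in Dox and 0.127 CPM in Control. Both were picked after their values were seen, and for both a level above Control was set in advance by the listing. Wdr5b had the highest value listed for Hif1a_siRNA alone, 2.33 CPM.

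Calls are given by kind of gene as a description. Of 11203 protein-coding genes 42.6% were higher in Dox, 46.6% lower and 15.2% equal. Of 599 long noncoding RNA genes 47.4% were higher, 25.9% lower and 3.17% equal, and of 897 pseudogenes 56.1% were higher, 25.0% lower and 3.57% equal. The equality call also depends on how well a gene is measured, and the kinds were not compared at matched levels. The share of reads on pseudogenes was 2.37 to 2.48% in Dox and 1.63 to 1.70% in Hif1a_siRNA.

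Among protein-coding nuclear genes the direction varied with the length of genome a gene spans, a property the comparison did not use. The 11190 genes were put in 10 equal bins by span. In the bin with the shortest spans, 0.374 to 4.74 kb, the median log2 fold change was 0.65 and 58.4% of 1119 genes were higher in Dox. In the bin with the longest spans, 118 kb and more, it was -0.49 and 31.0% were higher. The share of equal genes ran from 12.6 to 16.4% over the bins. Over own controls the medians were 0.37 in the shortest bin and -0.18 in the longest. NC_siRNA over Control, which enters that comparison, had medians of -0.28 in the shortest bin and 0.21 in the longest. These are descriptions over genes of the same libraries, with no test, and their cause was not tested.

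**Figure D5:**
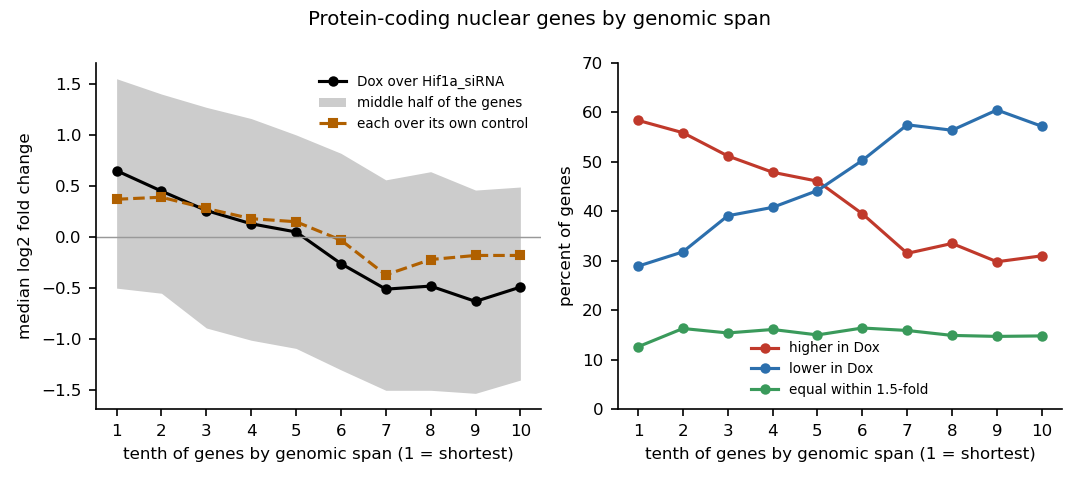
Protein-coding nuclear genes in 10 equal groups by the genomic span of the gene on GRCm38.p6 (x axis, 1119 genes a group). Left, median log2 fold change of Dox over Hif1a_siRNA with the interquartile range of the genes in grey, and of each group over its own control (dashed); right, percent of genes higher in Dox, lower in Dox and equal. The median is 0.65 in the shortest group and -0.49 in the longest.

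The second comparison, of the change over each group's own control, covered 12734 genes and called 5239 higher (41.1%) and 4931 lower (38.7%). Of 12695 genes tested both ways, 4393 were higher in Dox in both and 4434 were lower in both. A further 1797 that differed directly were not called over own controls. Opposite calls were made for 176 genes that were higher directly and lower over controls, and for 339 genes the other way. The comparisons share the 6 treated libraries, so they are not independent of each other. Bub1 and the heat shock gene Hspa1a (1.88 directly and -1.11 over own controls) belong to the first of these sets and Ccn1 to the second.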

How the data were processed

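The authors deposited raw read counts per gene for each group, with gene identifiers, and these counts were used as deposited. Per the submitters' processing notes, reads were processed on mm10 with tools that included StringTie 2.1.3b, the aligners Bowtie2 2.3.4.1 and HISAT2 2.1.0, and Trimmomatic 0.38 for trimming; the counting program and its strand setting are not given in the sources used here. Libraries were made with a stranded messenger RNA kit, per the labels' protocols. How reads of overlapping or near-identical genes were assigned can therefore change single values. Among the genes named, 33 overlap another tested gene, and 21 overlap a gene with a sizeable share of their own level in either group. Not all are marked where they are named. Pfkp shares 285 bases with Pitrm1, which had 453 CPM in Dox and 120 CPM in Hif1a_siRNA. Chaf1a shares 982 bases with Ubxn6, which had 85.8 CPM in Dox and 38.1 CPM in Hif1a_siRNA.

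The 6 Dox and Hif1a_siRNA libraries were fitted with edgeR 4.0.16 in R 4.3.3 (TMM factors, quasi-likelihood test, Benjamini-Hochberg adjustment over all 12798 genes) after edgeR's filter at 10 reads, which removed 40 genes. Equality used a pair of one-sided tests against 1.5-fold with the fitted standard error. The change over own controls was fitted on 12 libraries. Levels are CPM with TMM factors over all 15 libraries, except for genes listed for a single treated group, which have no TMM factors. Ratios of levels thus differ slightly from the fitted changes, and small gaps between groups depend on the scaling. The common biological coefficient of variation was 0.0681 with 4 residual degrees of freedom. On simulated counts for 12795 genes of this comparison, 88.1% of 1.5-fold, 94.0% of 2-fold and 100% of 4-fold changes were recovered. Of unchanged genes 95.9% were called equal. The simulation changed only a small part of the genes, in random directions, and gave all genes the same biological variation. In the data 43.8% of genes were higher and 43.9% lower, so these rates do not cover the scaling or the equality calls made here. Nothing in the labels says that the replicates came from separate days or cultures beyond their name, and the spread behind each p-value is that between these libraries, which may be technical.

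Named genes were Hif1a and Arnt, the 12 largest changes in each direction among genes of at least 5 CPM whose groups did not overlap, the 10 genes with the smallest equality p, and from each list up to 4 called genes in each direction and 3 equal genes; a few genes that this rule names are not reported here. Members and lists were chosen with earlier results of these data known. Alternatives were RLE and upper-quartile factors, DESeq2 1.42.0, limma-voom 3.58.1, other filters, thresholds and margins, all 15 libraries, a replicate block, protein-coding nuclear genes, and each library left out; a filter at 10 reads in every library was chosen after seeing the data. Gene names and spans not in the files came from RefSeq on GRCm38.p6.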

Additional observations from a re-analysis of the deposited data

How the results depend on the processing

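The counts of genes higher and lower in Dox, directly and over own controls, stayed within 1.5 times their reported values under every alternative tried. The count of genes at equal levels within 1.5-fold depended on that margin by construction: a narrower margin gave 174 genes and a margin of 2-fold gave 4363. Upper-quartile factors gave 6430 higher, 4908 lower and 1723 equal genes and reversed 13 calls; among named genes Mxi1 had a log2 fold change of 0.07 and Hspd1 of 0.08 under them. Counts within the gene lists were less stable: of the values recomputed under the alternatives, 76 counts of equal members moved by over 1.5 times and 485 did not, while 11 counts of higher or lower members moved and 1111 did not. Upper-quartile factors gave 8 damage kinase and end joining genes higher in Dox and 3 TGF-beta and matrix genes lower, and leaving out replicate 2 of Dox or replicate 1 of Hif1a_siRNA gave 3 damage kinase genes higher. Among log2 fold changes of named genes 2 reversed, 54 passed the threshold that had not, 11 no longer passed it and 2712 kept direction and side. Leaving out each library gave 5457 to 5590 higher, 5477 to 5612 lower and 1406 to 1764 equal genes. Same-numbered libraries did not deviate together over all genes (r of 0.00163, 0.0402 and 0.0179). Pairing by number was thus not evident, which does not show that the samples were unpaired. With the replicate block there were 5595 higher, 5605 lower and 1724 equal genes, and 5232 higher and 4914 lower over own controls. DESeq2 gave 5494 higher, 5507 lower and 1691 equal genes. The 635 genes called neither different nor equal had a median level of 1.54 CPM.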
